A study of Mus musculus with 4 samples.

Results

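Genes of the neuronal cytoskeleton and of synaptic vesicle release were followed in cultured mouse neural stem cells labelled Olig1 KO or wild type. Olig1 encodes a basic helix-loop-helix factor of the oligodendrocyte lineage, and the comparison asks whether these neuronal transcripts differ when it is mutated. The members were all probe sets that the platform annotation assigned to a single gene of a list of 33 such genes. This gave 56 of the 20380 probe sets with 1 gene symbol, and they measured 32 of the 33 listed genes. The expression of the RNA-binding protein gene Celf3 was not analysed here.

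The cells had been isolated at embryonic day 14.5 from ganglionic eminence tissue, the ventral germinal zone of the forebrain that makes interneurons and early oligodendrocyte precursors. The Olig1 KO group held 3 arrays of cells labelled Olig1 KO, and the wild-type group held 1 array. All 4 had the C57/Bl6 background and were grown without serum in neural stem cell medium with EGF. Per the titles, numbers 37 and 38 mark KO replicates 2 and 3, and KO replicate 1 has no number. The labels do not say which part of Olig1 the allele lacks, nor whether each KO sample had its own embryo or culture. The p-values thus cover the spread among these samples alone, and that spread may be technical.

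Neurons build their axons and dendrites on stable microtubules, which are made of tubulins, bound by proteins such as Map2 and Mapt, and remodelled by the stathmins and by the collapsin response mediator proteins. At the nerve terminal, transmitter is released when a SNARE complex of Snap25, Vamp2 and Stx1a fuses a vesicle with the membrane under the control of the calcium sensor Syt1. Neural stem cells express a few of these genes at high levels, such as Stmn1 in dividing cells, and switch on most of the others as they become neurons.

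The values are MAS5 signals, in linear units without a physical scale, and each array had been scaled by the authors. A signal was called at background where it did not exceed the highest of 27 bacterial control probe sets with no target in the same array. That line stood at 21.3, 39.99 and 87.8 in KO replicates 1, 2 and 3, against 30.5 in the wild-type array. The arrays also paired off without regard to genotype. The X-inactivation RNA Xist gave 8473, 160.9 and 46.5 in KO replicates 1, 2 and 3, against 9480 in the wild-type array, which pairs KO replicate 1 with wild type. The Y-linked gene Eif2s3y ran the other way, at 1.53, 654 and 1160 against 0.61 in the wild-type array. The median of the 18S ribosomal RNA probe sets split the arrays likewise, at 7.24, 946 and 2823 against 4.64. The 18 spiked-in control probe sets were 0.90, 1.89 and 2.75 times their wild-type signal in KO replicates 1, 2 and 3, by their median. The 3'/5' ratio of the beta-actin control, a sign of RNA integrity, was 1.251, 1.30 and 1.82 in KO replicates 1, 2 and 3, against 1.11 in the wild-type array. That of the Gapdh control was 0.79, 1.03 and 0.84 against 0.76, so it was highest in KO replicate 2 and not in KO replicate 3. Olig1 itself gave 3840, 4438 and 8548 in KO replicates 1, 2 and 3, against 7618 in the wild-type array, and so did not check the labels. The part that array pair, 18S signal, background and RNA integrity have in the results below was not tested.

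The label of the gene set was checked first. Of 12 measured neural stem cell markers, 12 were kept by the filter, as were 19 of the 32 measured members. The members went different ways. Map2, Nsg2, Gap43 and Stmn3 were well above background in all 4 arrays, while Tubb3, Stmn2 and Stmn4 were near or at background. Tubb3, the neuronal beta-tubulin, gave 63.3, 61.9 and 92.0 in KO replicates 1, 2 and 3, against 46.9 in the wild-type array. These signals lay above the background line in all 4 arrays, in KO replicate 3 by a few units only. Stmn2 and Stmn4, the stathmins of growing axons, were at background in 2 and 4 of the 4 arrays. Of the 56 probe sets, 30 were above background in all 4 arrays, 26 were at background in at least 1 array and 4 in all arrays. By array, 10, 10 and 22 of the 56 were at background in KO replicates 1, 2 and 3, against 10 in the wild-type array. Among other cell types, 3 of 6 measured oligodendrocyte markers (Mobp, Myrf and Mog), the microglial genes C1qa and Ptprc, the vascular genes Tek and Pdgfrb and the mesenchymal gene Twist1 were at background in all 4 arrays. Other markers of these types were measured. The oligodendrocyte gene Cnp gave 1860, 2129 and 3283 in KO replicates 1, 2 and 3, against 1944 in the wild-type array, and Mbp gave 53.2, 123.7 and 224.4 against 173.4. Mag, a myelin adhesion protein gene left out by the filter, gave 89.9, 91.0 and 137.0 against 17.5, which was at background. The microglial gene Csf1r gave 118.8, 200.6 and 176.6 against 144.1. The endothelial gene Kdr gave 73.7, 123.3 and 77.6 against 115.5, with KO replicate 3 at background. The mesenchymal gene Col1a2, left out by the filter, gave 75.4, 74.4 and 126.2 against 107.5, above background in all 4 arrays.

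Each gene was represented by its brightest probe set, and signals were compared as log2(signal + 14.4), a scale that understates the change of dim genes. The 40% of genes with the lowest mean were left out. This kept 19 of the 32 measured members, among 7436 of 12393 genes.

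**Figure D1:**
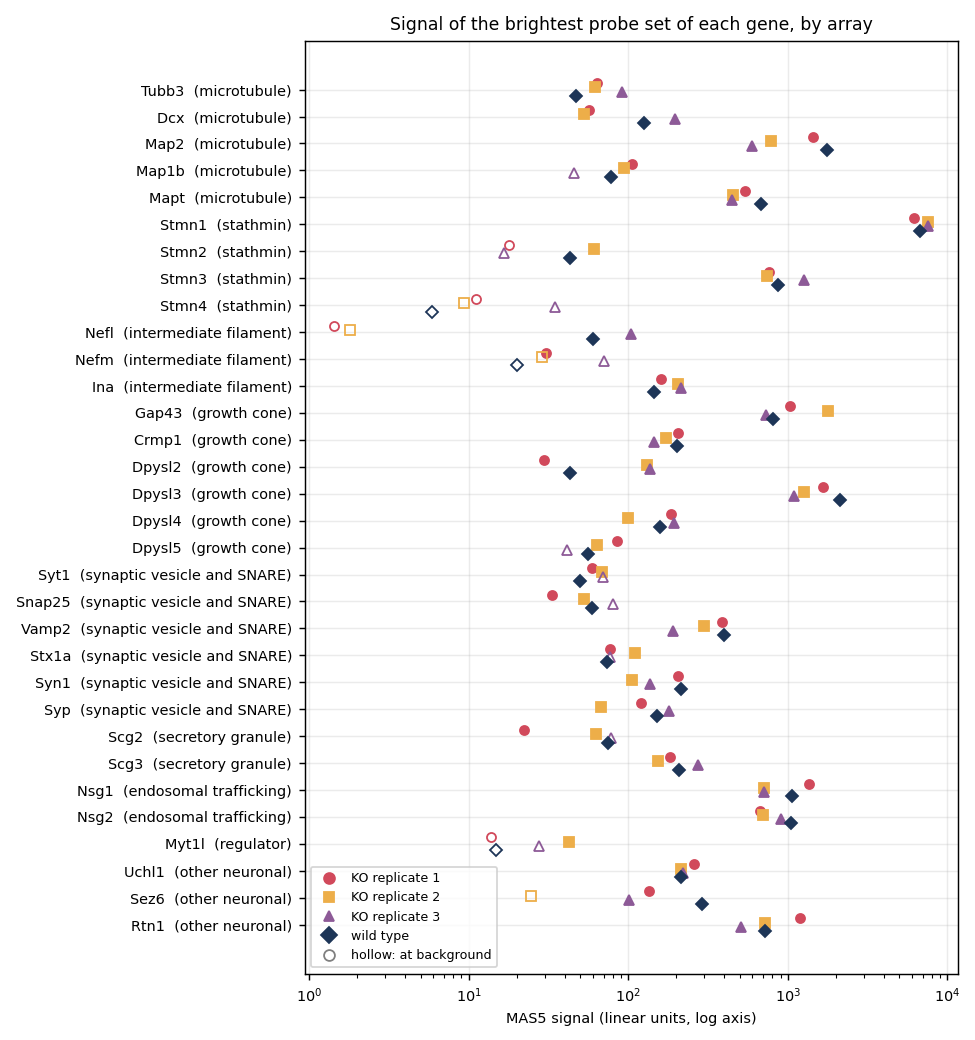
MAS5 signal (log axis) of the brightest probe set of each of the 32 measured genes, by role, with 1 marker per array, KO replicates above wild type within each row, and hollow markers for signals at background. Stmn1, Map2, Dpysl3, Nsg1 and Nsg2 stand far above background in all 4 arrays, while Stmn4 is at background in all of them; levels are comparable within a row, not between rows.

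No member passed the test of KO against wild type. By limma, 0 of the 19 kept members had an adjusted p under 0.05 (adjusted p = 0.99997 for each), and 0% of all kept genes did. At an unadjusted p under 0.05, 1 member was called, Sez6, lower in KO, where 0.941% of all kept genes were called in that direction and 2.26% in either. Sez6 and Dcx passed the filter only through the wild-type array, since their KO means on the log2 scale, 6.45 and 6.65, lay under its floor of 6.76. The differences below are therefore given as values. In bulk RNA, fewer cells of a type and less RNA per cell cannot be told apart.

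Of the 19 kept members, 7 lay below the wild-type array in each of the 3 KO arrays, as did 20.6% of all kept genes. These were Map2, Mapt, Dpysl3, Vamp2, Syn1, Nsg2 and Sez6. Only 1 of the 19, Ina, was higher in all 3 KO arrays, against 23.2% of all kept genes. The KO mean was lower for 13 of the 19 and for 50.1% of all kept genes. The median of the log2 differences, KO minus wild type, was -0.27 over the 19 members and -0.00014 over all kept genes. Without Sez6 and Dcx, 6 of 17 were lower in all 3 KO arrays and the median was -0.22. Over the 16 members not on the X chromosome it was -0.15, and over the X-linked Dcx, Syn1 and Syp it was -0.48. With the array pair as a block, the difference is that of KO replicate 1 from wild type alone, and the members' median was -0.13. Map2 then differed by -0.28 in place of -0.998, Vamp2 by -0.043 in place of -0.48, Syn1 by -0.064 in place of -0.53 and Sez6 by -1.01 in place of -1.79. Without KO replicate 3, the array with the highest background, 11 of the 19 were lower in both remaining KO arrays and 2 (Ina and Gap43) were higher, against 28.6% and 34.2% of all kept genes. Without KO replicate 1, 10 were lower and 2 (Ina and Stmn1) higher, against 34.9% and 35.7%. Without KO replicate 2, 7 were lower and 3 (Ina, Uchl1 and Dpysl4) higher, against 26% and 28.2%. With no filter on low signals, 7 of the 32 measured members lay below wild type in every KO array and 6 above it, against 18.6% and 25.2% of all 12393 genes.

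The arrays differed in how far the members lay from wild type. Over the 19 members, the median log2 difference from wild type was -0.13, -0.57 and -0.20 in KO replicates 1, 2 and 3. Over all kept genes these medians were 0.024, 0.022 and -0.016. The number of members below the wild-type array was 12, 16 and 11 of 19 in KO replicates 1, 2 and 3. Of all 7436 kept genes, 3457, 3565 and 3814 lay below it. Without Sez6 and Dcx, which passed the filter only through the wild-type array, the members' counts were 10, 14 and 10 of 17. KO replicate 1, which shares its Xist level with the wild-type array, was thus nearest to it in median, and KO replicate 2 lay farthest below.

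**Figure D2:**
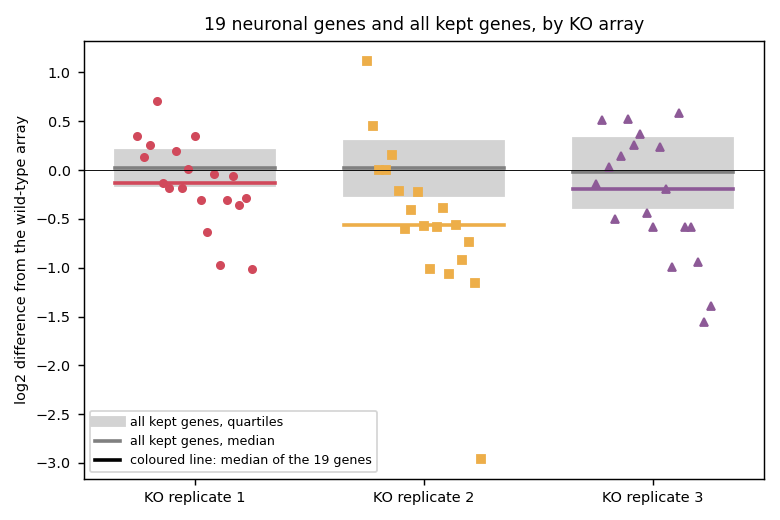
Log2 difference of each KO array from the wild-type array for the 19 kept genes (points) with their median (coloured line), over the median and quartiles of all 7436 kept genes (grey). The medians of the 19 genes are -0.13, -0.57 and -0.20 in KO replicates 1, 2 and 3; the lowest point is Sez6 in KO replicate 2, which was at background there.

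Among the microtubule genes, 3 of 5 were kept, and all 3 had a lower KO mean, as did 50.1% of all kept genes. Dcx among them passed the filter only through the wild-type array, which favoured a lower KO mean. Map2, the microtubule-associated protein of dendrites, gave signals of 1447, 784 and 593 in KO replicates 1, 2 and 3, against 1766 in the wild-type array. The wild-type array was thus the highest, KO replicate 1 lay close to it, and the other two KO arrays lay far below both. The KO mean was 941 ± 448 (SD, n = 3), and KO minus wild type came to -0.998 on the log2 scale (SE 0.49, limma adjusted p = 0.99997). A further Map2 probe set gave 715, 348.8 and 251.7 in KO replicates 1, 2 and 3 and 1048 in wild type, in the same order of arrays. Its log2 difference was -1.36 (SE 0.56) in the fit over 12228 probe sets.

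Mapt, which encodes the axonal microtubule protein tau, gave 541.0, 450.8 and 444.9 in KO replicates 1, 2 and 3, against 674.8 in the wild-type array. The KO arrays lay together below the wild-type array, and the log2 difference was -0.49 (SE 0.31). A second probe set showed this order, with 265.9, 184.8 and 202.8 against 379.2, and the last did not, with 378.4, 359.0 and 571.1 against 443.0. The probe set that differed is marked as shared by several transcripts of the gene.

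Dcx, the doublecortin of migrating neuroblasts, is X-linked and had 4 probe sets that did not agree. The brightest gave 57.0, 52.6 and 195.1 in KO replicates 1, 2 and 3, against 125.6 in the wild-type array, so the KO arrays lay on both sides of it. The next gave 36.1, 18.8 and 164.2 against 112.4, with KO replicate 2 at background, in much the same pattern. Another gave 26.7, 29.7 and 28.3 against 75.5, with KO replicates 2 and 3 at background, and only the last had wild type as its lowest array. Neither Tubb3 nor Map1b, a microtubule protein of growing axons, passed the filter. The brightest Map1b probe set gave 104.9, 93.7 and 45.7 in KO replicates 1, 2 and 3, the last at background, against 78.4 in wild type.

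Stathmins bind free tubulin and promote the loss of microtubules. The kept ones, Stmn1 and Stmn3, were among the kept members with the smallest differences. Their brightest probe sets are marked for cross-hybridization. Stmn1, the family member of dividing cells, gave 6175, 7534 and 7501 in KO replicates 1, 2 and 3, against 6762 in the wild-type array. The wild-type value fell inside the KO range, the KO mean was 7070 ± 776 (SD, n = 3), and the log2 difference was 0.058 (SE 0.31). Stmn3, a stathmin of neurons, gave 764, 745 and 1256 against 867, again with wild type inside the KO range. The other probe sets of Stmn1 and Stmn3 differed by 0.24 and 0.066. Stmn2 gave 17.96, 61.1 and 16.6 in KO replicates 1, 2 and 3, of which 1 and 3 were at background, against 43.3 in wild type. Its other probe set and the only probe set of Stmn4 were at background in all 4 arrays, so they carry no difference.

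The neuronal intermediate filament genes were dim, and only Ina was kept. Ina, the alpha-internexin that precedes the neurofilaments in development, gave 160.2, 203.7 and 213.1 in KO replicates 1, 2 and 3, against 145.0 in the wild-type array. All 3 KO arrays lay above the wild-type array, by a log2 difference of 0.37 (SE 0.32). A further Ina probe set above background in all 4 arrays gave 147.9, 113.7 and 93.3 against 122.1, with a log2 difference of -0.062, and so did not show this order. Nefl, the light neurofilament chain, was at background in KO replicates 1 and 2 (1.44 and 1.81) and gave 104.6 in KO replicate 3, against 59.9 in wild type. Nefm, the medium chain, was at background in all arrays but KO replicate 1, where it gave 30.6.

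The growth cone genes went different ways. Dpysl3, a collapsin response mediator protein that binds tubulin and actin in growing axons, gave 1649, 1261 and 1093 in KO replicates 1, 2 and 3, against 2114 in the wild-type array. Wild type was the highest array and KO replicate 1 the next, and the KO mean was 1335 ± 285 (SD, n = 3). KO minus wild type came to -0.68 on the log2 scale (SE 0.35, limma adjusted p = 0.99997). Its 2 other probe sets differed by -0.43 and -0.40 and were also lower in all 3 KO arrays, which makes Dpysl3 the member with the most probe sets lower in every KO array. Gap43, a membrane phosphoprotein of growth cones, gave 1036, 1776 and 731 against 809. KO replicates 1 and 2 lay above the wild-type array and KO replicate 3 below it, with a log2 difference of 0.44 (SE 0.49).

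The other members of the Dpysl family gave the following values. Crmp1 gave 204.7, 171.4 and 145.7 in KO replicates 1, 2 and 3, against 203.1 in the wild-type array, which KO replicate 1 matched. Dpysl4 gave 184.3, 99.8 and 192.2 against 159.0 with its brightest probe set, which is marked for cross-hybridization. A second Dpysl4 probe set gave 109.2, 116.6 and 110.9 against 213.6. There the KO arrays lay close together far below wild type, and KO minus wild type came to -0.85 on the log2 scale (SE 0.31, limma adjusted p = 0.99909 over all kept probe sets). The last was at background in 3 arrays. Dpysl2 did not pass the filter and gave 29.5, 131.1 and 136.7 in KO replicates 1, 2 and 3, against 42.9 in wild type. Its low and high arrays thus followed the pairs set by Xist. Dpysl5, also left out by the filter, gave 84.6, 64.1 and 41.4, the last at background, against 56.1.

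**Figure D3:**
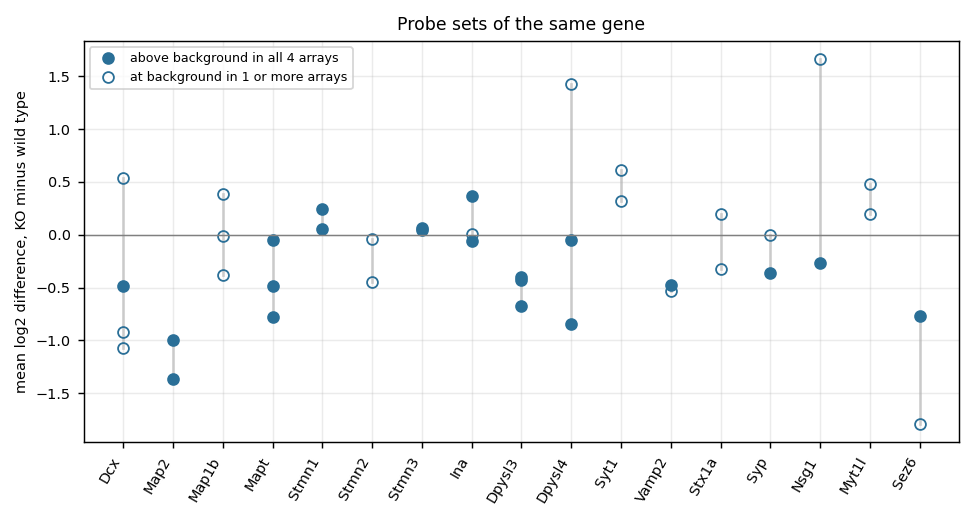
Mean log2 difference, KO minus wild type, of every probe set of the 17 genes with more than 1 probe set; filled points were above background in all 4 arrays and hollow ones were not. The filled points of Map2 and Dpysl3 all lie below 0, those of Ina lie on both sides of it, and the widest spreads, in Dpysl4 and Nsg1, come from hollow points.

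Of the 7 genes with more than 1 kept probe set above background in all 4 arrays, 6 had the same sign in all such probe sets. The lowest and highest differences were -1.36 and -0.998 for Map2, -0.68 and -0.40 for Dpysl3, -0.78 and -0.052 for Mapt, and -0.85 and -0.051 for Dpysl4. Stmn1 and Stmn3 were above 0 in both, and Ina was the exception. Of the 30 kept member probe sets, 14 were lower in all 3 KO arrays, against 23.6% of all kept probe sets, and 2 were higher in all 3, against 22.6%. At an unadjusted p under 0.05 in limma, 3 of the 30 were lower, against 1.2% of all kept probe sets. These were 1 each of Map2, Dpysl4 and Sez6, and 0 of the 30 had an adjusted p under 0.05 in limma. This Sez6 probe set, with a KO mean of 6.45 on the log2 scale, passed the filter only through the wild-type array. It also counts among the 14, and the filter favoured that direction for it. Probe sets of the same gene share their RNA and are not replicates.

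Among the synaptic vesicle and SNARE genes, 3 of 6 were kept, and all 3 had a lower KO mean, as did 50.1% of all kept genes. Vamp2, the vesicle SNARE synaptobrevin, gave 384.3, 299.1 and 191.6 in KO replicates 1, 2 and 3, against 396.4 in the wild-type array. KO replicate 1 lay just below wild type and KO replicate 3 lowest, and the log2 difference was -0.48 (SE 0.42). A dimmer Vamp2 probe set gave 121.5, 144.9 and 84.7, the last at background, against 172.2. Syn1, the X-linked synapsin that tethers vesicles to actin, gave 203.9, 105.7 and 137.6 against 213.8, or -0.53 on the log2 scale (SE 0.40). For Syn1 too, KO replicate 1 was close to wild type and the other KO arrays lay below both.

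Syp, the X-linked vesicle membrane protein synaptophysin, gave 119.4, 67.1 and 180.3 in KO replicates 1, 2 and 3, against 150.6 in the wild-type array, and its groups overlapped. The calcium sensor gene Syt1 gave 59.2, 68.4 and 69.0 against 49.7, with KO replicate 3 at background. The plasma membrane SNARE genes were as dim. Snap25 gave 33.4, 52.7 and 80.1 against 59.3, and Stx1a gave 77.0, 109.5 and 76.7 against 73.9, both with KO replicate 3 at background. The 3 genes that carry the core of the release machinery beside Vamp2 were thus left out by the filter.

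Secretory granule genes showed no common order. Scg3, a granin that sorts hormones into granules, gave 181.4, 152.8 and 272.7 in KO replicates 1, 2 and 3, against 208.0 in the wild-type array. Scg2, the granin precursor of secretoneurin, was left out by the filter and gave 22.1, 62.8 and 77.7, the last at background, against 74.9.

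Nsg1 and Nsg2 encode small membrane proteins that recycle receptors through neuronal endosomes, and both were well above background with their brightest probe sets. Nsg2 gave 670, 695 and 912 in KO replicates 1, 2 and 3, against 1047 in the wild-type array. Wild type was the highest array, and KO replicate 1, from the same array pair, was the lowest, with a log2 difference of -0.47 (SE 0.33). Nsg1 gave 1365, 712 and 706 against 1066, so KO replicate 1 lay above wild type and the other KO arrays below it. A dimmer Nsg1 probe set was at background in 3 arrays.

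Of the remaining members, Sez6 differed most. Sez6, a membrane protein gene of dendrites and synapses, gave 135.8, 24.6 and 100.7 in KO replicates 1, 2 and 3, against 288.7 in the wild-type array, with KO replicate 2 at background. All 3 KO arrays lay below wild type, as for 20.6% of all kept genes. The difference of -1.79 on the log2 scale (SE 0.69, limma adjusted p = 0.99997) has no exact size because of KO replicate 2. Sez6 also passed the filter only through the wild-type array, which favoured this direction. Its second probe set, above background in all 4 arrays, gave 104.1, 63.0 and 106.5 against 161.5, or -0.76 on the log2 scale (SE 0.39). The KO mean of this second probe set also lay under the gene floor of 6.76, so the same limit holds for it. With a pseudocount of 0.01 times the median and with quantile normalization this second probe set had the higher mean and stood for the gene, at -0.85 and -0.77.

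Uchl1, the abundant ubiquitin hydrolase of neurons, was among the steadiest members, with 258.8, 214.1 and 219.8 in KO replicates 1, 2 and 3, against 214.3 in the wild-type array. Rtn1, a reticulon of the neuronal endoplasmic reticulum, gave 1191, 719 and 506 against 721, with wild type inside the KO range. Myt1l, a zinc finger factor that represses non-neuronal genes, was at background in all arrays but KO replicate 2, where its brighter probe set gave 42.4.

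**Figure D4:**
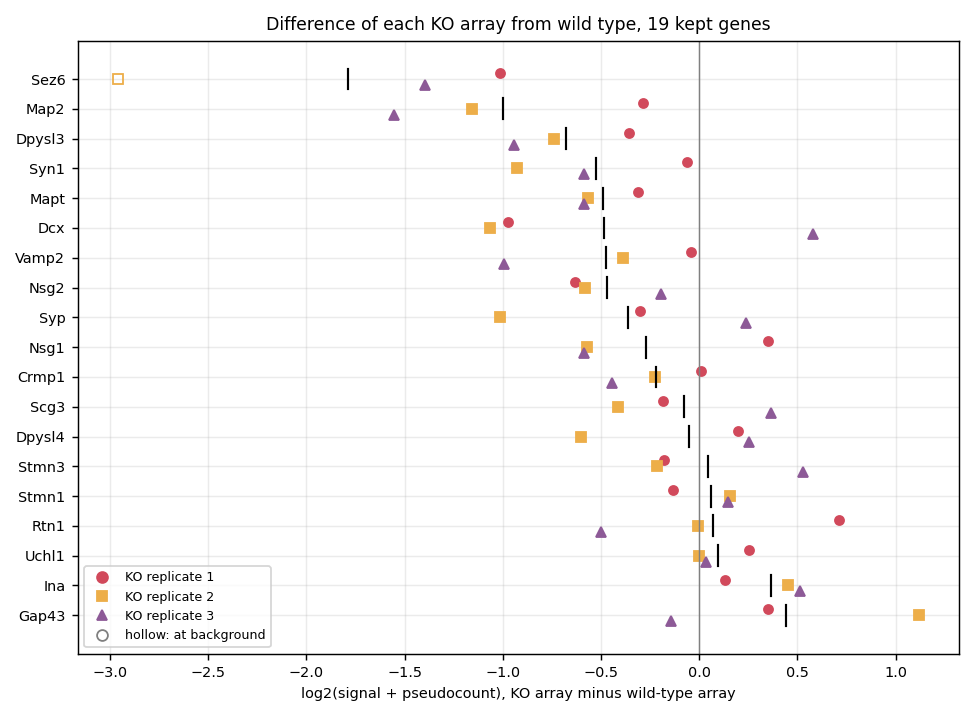
Log2 difference of each KO array from the wild-type array for the 19 kept genes, ordered by their mean (black bar), with hollow markers at background. The 7 genes with all 3 KO arrays below 0 are Sez6, Map2, Dpysl3, Syn1, Mapt, Vamp2 and Nsg2, and in 6 of them KO replicate 1 is the nearest to 0 of the 3.

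Many genes of this kind are held silent outside neurons by the repressor REST, which binds an element called RE1 or NRSE. Promoter stretches were chosen with the results known, as Syn1, a known REST target, was among the genes lower in all 3 KO arrays. RefSeq windows (GRCm38.p6) of 250 bases before to 50 bases after the start site were found for 19 of the 33 listed genes and for 27025 genes in all. A 16-letter form of the RE1 consensus, searched on both strands, was in 0 of the 19 and in 0.0777% of all genes. Only exact matches to this form were counted, so their absence does not show that a window lacks the element. The letters TTCAGCACC, which overlap the start of that form, were in 3 of the 19 (15.8%), Syn1, Nsg2 and Scg2, and in 0.433% of all genes. They begin a base before the searched form and allow no variable letter, so they are not a part of it. Capitals mark these letters, read on the other strand in Scg2.
Syn1: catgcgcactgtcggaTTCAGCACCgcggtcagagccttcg
Nsg2: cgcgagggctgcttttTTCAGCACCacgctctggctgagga
Scg2: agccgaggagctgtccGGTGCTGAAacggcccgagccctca
The Syn1 stretch is chrX:20921126-20921166 on the minus strand, and its capitals begin 232 bases before the start site. The Nsg2 stretch is chr11:32000483-32000523 on the plus strand, 201 bases before a start site, and the Scg2 stretch is chr1:79440009-79440049 on the minus strand, 7 bases before it. Syn1 and Nsg2 were lower in all 3 KO arrays, Syn1 by a log2 difference of only -0.064 in KO replicate 1. Scg2 was left out by the filter, and its only KO array above wild type, KO replicate 3, was at background. Whether these letters have a part in the differences was not tested. The E-box CANNTG, the kind of site that basic helix-loop-helix factors such as Olig1 bind, was in 12 of the 19 (63.2%) and in 75% of all genes. Its form CAGCTG, which CANNTG includes, was in 6 of the 19 (31.6%) and in 18.3% of all genes. A match describes the letters of the window and not a bound site.

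Other neuronal genes, not members, were counted from 3 lists. Of 29 measured microtubule and axon genes, 15 were kept, 5 of them lower and 2 higher in all 3 KO arrays, with a median log2 difference of -0.18. Of 31 measured vesicle and release genes, 16 were kept, 5 lower and 4 higher, with a median of -0.16. Of 10 measured neuroendocrine granule genes, 3 were kept, 0 lower and 1 higher, with a median of 0.22. None of them passed the test (0 called in limma), and the shares for all kept genes are those given above. Synpr, a synaptophysin relative, gave 160.6, 67.1 and 63.8 in KO replicates 1, 2 and 3, the last at background, against 233.5 in the wild-type array. The axonal kinesin gene Kif1a gave 265.8, 99.6 and 164.2 against 325.5, and the vesicle GTPase gene Rab3a gave 274.0, 264.2 and 184.6 against 335.4, both lower in all 3 KO arrays. In the opposite direction, the growth cone protein gene Basp1 gave 4809, 5360 and 3543 against 2837, and Syngr3, a synaptogyrin, gave 69.1, 185.0 and 239.6 against 62.0. Synpr passed the filter only through the wild-type array, as its KO mean on the log2 scale lay under the floor. Syngr3 passed only through the KO arrays, as its wild-type value lay under it. The filter thus favoured the direction seen in each of these genes.

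Markers of glia and stem cells moved as follows beside these genes, and their part in the members' differences was not tested. The summed signal of 12 measured neural stem cell markers was 39686, 55257 and 59356 in KO replicates 1, 2 and 3, against 42654 in the wild-type array. Fabp7, a fatty acid binding protein gene of radial glia, made up much of that sum, with 13667, 25380 and 34007 against 16547. The median log2 difference of these 12 markers was -0.15, with 4 lower and 2 higher in all 3 KO arrays, so the median lay below 0 while the sum was above wild type in KO replicates 2 and 3. The summed signal of 9 astrocyte markers was 10035, 7333 and 7400 against 11433, so all 3 KO arrays were below wild type. The median log2 difference of the 7 kept astrocyte markers was -0.52, with 3 lower and 0 higher in all 3 KO arrays. Slc1a2 among them had a higher KO mean, by 0.14. The summed signal of 6 oligodendrocyte precursor markers was 5503, 3890 and 3330 against 4996, of which Olig2 gave 4939, 3411 and 2693 against 4278. The median of its 4 kept genes was 0.094, with 2 (Sox10 and Cspg4) higher and 1 (Nkx2-2) lower in all 3 KO arrays. KO replicate 1 was the KO array nearest to wild type in each of these 3 sums.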

How the data were processed

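The deposited values are MAS5 signal intensities, scaled per array by the authors (MAS5 per the submitters' processing notes, with its version and target not given in the sources used here); the mean without 2% of probe sets in each tail was about 500.2 in every array. RNA was extracted with Trizol and labelled from 6 µg, per the labels. Probe sets were named through the platform annotation; 64 controls and probe sets with several symbols or none were left out. Signals became log2(signal + 14.4), 0.1 times the median of all values, with no further normalization. Genes took the probe set of highest mean; the lower 40% were left out. limma 3.58.1 in R 4.3.3 (lmFit, eBayes, two-sided, Benjamini-Hochberg over all 7436 kept genes, or 12228 kept probe sets) compared KO with wild type. The single wild-type array adds no spread of its own, so the error rests on the KO arrays (2 residual and 5.23 prior degrees of freedom). Members, lists and tests were chosen with earlier results of these data known. All members are named; of other neuronal lists, genes come from the 4 with the largest moderated t each. The number of arrays limits the precision.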

Additional observations from a re-analysis of the deposited data

How the results depend on the processing

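Over 12 alternative settings of scaling, pseudocount, filter, probe set choice, eBayes options, arrays left out and the array pair as a block, no member was called, and the lowest adjusted p was 0.75. Of 217 recomputed member differences, 205 kept their sign and 12 turned, in 7 genes, none of them lower or higher in all 3 KO arrays. Genes lower or higher in all 3 could not turn with a KO array left out or with the block. The filter and eBayes settings leave every difference as it was, so a kept sign there carries no information. Stmn1 turned to -0.078 with quantile normalization. With the mean of all probe sets, Dpysl4 became 0.18 and Nsg1 0.70. With the pair as a block, Stmn1 became -0.13, Dpysl4 0.20, Nsg1 0.35, Stmn3 -0.18 and Crmp1 0.011, and Map2, Vamp2, Syn1 and Sez6 shrank to -0.28, -0.043, -0.064 and -1.01. Sez6 was -0.85 with the pseudocount of 0.01 times the median and -0.77 with quantile normalization, through its other probe set. With a KO array left out, Rtn1 became -0.25 without replicate 1 and Dpysl4 0.22 without replicate 2, Scg3 ran between 0.092 (without replicate 2) and -0.30 (without replicate 3), and Stmn3 between 0.17 (without replicate 2) and -0.20 (without replicate 3). The members' median of -0.27 was -0.076 with the mean of all probe sets, -0.064 for all 32 members with no filter, -0.13 with the block, and -0.33 to -0.12 with a KO array left out. Over the 18 kept members above background in all arrays, a setting chosen after the data were seen, it was -0.24. Leaving out a KO array gave 7 to 11 members lower and 2 to 3 higher in all remaining KO arrays. The count higher in all 3 was 6 of 32 with no filter, 0 of 10 with the lower 60% left out, and 2 with quantile normalization, division by the array median or the mean of all probe sets. Genes called stayed at 0, except for 2 without KO replicate 1, neither of them a member. At an unadjusted p under 0.05 there were 168 genes, 320 with no filter, 77 with the lower 60% left out, 110 with the block, and 63 to 486 with a KO array left out. The letters TTCAGCACC were in the promoters of 3 members and the 16-letter form of the RE1 consensus in 0. The labels give the groups no shared replicate numbers, and the array pair was the only block fitted; its values rest on KO replicate 1 against wild type alone. Signals near background limit the 13 genes that did not pass the filter.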
